A study of Rattus norvegicus with 4 samples.

Results

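The genes described here encode the nuclear share of the oxidative phosphorylation (OXPHOS) machinery of mitochondria. Their RNA was followed in rat cortical neurons, taken at embryonic day 18 and cultured with topotecan or with DMSO as control. The members are the rows of the gene count table whose symbol starts with Nduf, Uqcr, Cox4 to Cox8 or Atp5, or is Sdha to Sdhd, Cyc1 or Cycs, with a summed count of 40 or more over the 4 libraries. Of 21648 Ensembl gene identifiers 92 matched by name and 86 reached that sum, under 83 symbols, since Cox6b1, Ndufv3 and Uqcrb each stand on 2 identifiers. The members closest above the limit were Ndufs6 (51 counts), Cycs (56) and Ndufa4l2 (58), and those below it were Ndufb4l1 (9), Cox8b (1) and the rows of Atp5f1, Cox6c-ps1, Cox7a1 and Cox8c, at 0 in every library. A row at 0 does not show that its gene is silent, since the assignment of reads to rows is not known. Topotecan blocks topoisomerase I, which relaxes the supercoils that form as DNA is transcribed, and the stated purpose of the treatment was to lower the expression of long genes. There were 2 topotecan and 2 DMSO libraries of total RNA. Both groups were commercial rat cortex cells (BrainBits) plated in neural induction medium and moved after 24 hours to neuronal medium with SM1 supplement, and no strain, dose or length of exposure is stated in the sources used here.

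Electrons from NADH enter the respiratory chain at complex I and those from succinate at complex II. They pass through ubiquinone to complex III, through cytochrome c to complex IV, and there to oxygen. Complexes I, III and IV pump protons across the inner membrane, and complex V, the ATP synthase, uses the gradient to make ATP. Neurons rely heavily on this route for the ion pumping that follows synaptic activity. All of complex II and most subunits of the other complexes come from nuclear genes, while a small core set is encoded by mitochondrial DNA, and assembly factors build the complexes without staying in them.

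The topotecan libraries held 31181382 and 25459488 gene counts, and the DMSO libraries 27347410 and 22957786. The neuronal identity of the cultures was checked with 17 pan-neuronal markers, all above the low-count filter, which summed to 33432 and 34740 CPM (counts scaled to library size) in topotecan and 30356 and 28184 CPM in DMSO. Of these markers 6 rose and 2 fell, Syt1 (log2 fold change -1.53) and Thy1 (-0.45), and Tubb3 held the largest part of the sum, with 10252 and 11701 CPM in topotecan and 9507 and 7673 CPM in DMSO. Over all genes tested 16.2% rose and 23.5% fell, and among genes whose average log2 CPM reached 5 they were 29.2% and 17.4%. The lists of neuronal markers are too small to set against these shares. Markers of neuron types are given as a description. Of 8 glutamatergic markers 5 rose and 0 fell, among them Neurod6 (log2 fold change 1.23) and Tbr1 (0.73). Of 6 tested interneuron markers 3 rose, Sst (1.80), Dlx1 (0.89) and Npy (0.58), and 2 fell, Gad2 (-0.71) and Gad1 (-0.43). Markers of glia were far lower in topotecan. All 10 astrocyte markers fell, and their sum was 114 and 126 CPM in topotecan against 3890 and 3959 CPM in DMSO. All 8 oligodendrocyte markers fell too, with sums of 71.3 and 53.0 CPM in topotecan against 2692 and 3183 CPM in DMSO, and Sox10 was at 0 in both topotecan libraries. Of 6 radial glia and progenitor markers 5 were tested and all 5 fell, with sums of 9.65 and 8.52 CPM in topotecan against 356 and 337 CPM in DMSO, and Hes5 was at 0 in both topotecan libraries. Some glial and progenitor markers, among them Sox10, Olig2, Enpp6, Gfap, Sox9, Pax6 and Nes, passed the low-count filter through their DMSO libraries alone. Neurod2, 1 of the glutamatergic rises, passed it through its topotecan libraries alone. The calls of such markers support nothing here, and the sums are given as a description. In bulk RNA, fewer cells of a type and less RNA per cell cannot be told apart. The part of the glial and neuronal marker differences in the OXPHOS values below was not tested.

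The DMSO libraries differed from each other in these genes. Of 86 members 74 were higher in DMSO replicate 1 than in DMSO replicate 2, against 50.2% of all genes tested. The median log2 ratio of DMSO replicate 1 over replicate 2 was 0.12 for the members and 0.00 for all genes. Between the topotecan libraries it was 0.02 for the members. Atp5d, the delta subunit of the ATP synthase, had 764 and 787 CPM in topotecan and 858 and 540 CPM in DMSO, the largest log2 ratio of CPM + 0.5 between DMSO libraries of any member. For most members the lower value of the DMSO pair came from replicate 2, and the counts of calls are therefore also given without each DMSO library.

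**Figure D1:**
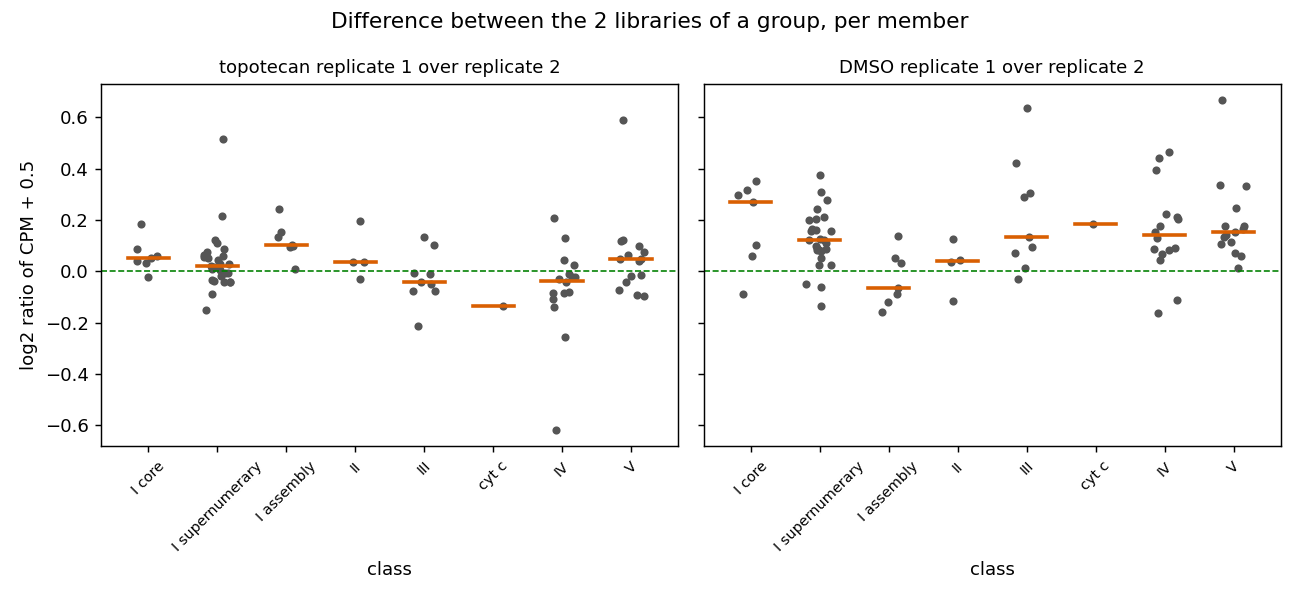
Log2 ratio of CPM + 0.5 between the 2 libraries of a group (vertical axis) for each member (points) by class (horizontal axis), topotecan on the left and DMSO on the right, with class medians as orange bars and the median of all genes tested as a dashed line. In DMSO 74 of 86 members lie above 0, and in topotecan 48 do.

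OXPHOS genes moved little in topotecan, and in both directions. Of 86 members, all of which passed the low-count filter, 18 (20.9%) were higher in topotecan and 9 (10.5%) lower (quasi-likelihood test of edgeR, with an adjusted p under 0.05). Over all 12162 genes tested 16.2% were higher and 23.5% lower, and 39.7% were called in either direction. Among the 6439 tested genes that span less than 30 kb, as 82 of the members do, they were 22.6% higher and 17.8% lower. Among the 4281 genes whose average log2 CPM reached 5 they were 29.2% higher and 17.4% lower, and among the 75 members in that range 24.0% and 9.33%. The share of rises thus lay close to that of short genes, and the share of falls below each of these backgrounds. The median log2 fold change of topotecan over DMSO was 0.11 for the members, against -0.01 for all genes, 0.10 for genes under 30 kb and 0.10 for abundant genes. Apart from Cox4i2, the called members had fitted log2 fold changes from -0.59 to 0.45.

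In each library, the median of the members' log2 CPM relative to the DMSO mean was 0.13 and 0.10 in topotecan and 0.06 and -0.06 in DMSO. Both topotecan medians lay above both DMSO medians, and they lay closer to DMSO replicate 1 than the DMSO libraries lay to each other. With 2 libraries against 2 an exact permutation test cannot go below p = 0.333. The topotecan and DMSO libraries did not overlap for 64 members, 48 of them higher in topotecan and 16 lower. Of all genes tested 33.7% were higher without overlap and 36.9% lower. Among the 6439 genes under 30 kb 2783 were higher without overlap and 1844 lower. Among the 4281 genes whose average log2 CPM reached 5, these numbers were 2085 and 1183. Members as a whole took 3.17% and 3.13% of all gene counts in topotecan, and 3.14% and 2.84% in DMSO.

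How many members rose depended on the scaling and on single libraries. An alternative scaled the libraries to the summed counts of 17 pan-neuronal genes. Of these genes 6 rose, among them the abundant Tubb3 (log2 fold change 0.35) and Uchl1 (0.78), and 2 fell. Their median was 0.14, so the sum is no neutral reference. With this scaling the median of all genes was -0.23, and none of the 18 rises kept its call. Of the members 18 were lower and 0 higher, against 33.8% and 4.49% of all genes. The median of the members was then -0.10. Relative to the median of all genes it was 0.12 with the first scaling and 0.13 with the second. The count of rises was 39 without DMSO replicate 1 (20.1% of all genes), 14 without DMSO replicate 2 (15.7%), 7 without topotecan replicate 1 (9.72%) and 13 without topotecan replicate 2 (10%). Falls numbered 7, 11, 6 and 5 in the same order, against 23.7%, 22.1%, 18.8% and 18.8% of all genes. With library totals alone 15 members rose (13.6% of all genes) and 10 fell (24.9%), with limma-voom 20 rose (16.4%) and 9 fell (23.6%), and with no count filter 25 rose (14.1%) and 9 fell (18.8%).

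**Figure D2:**
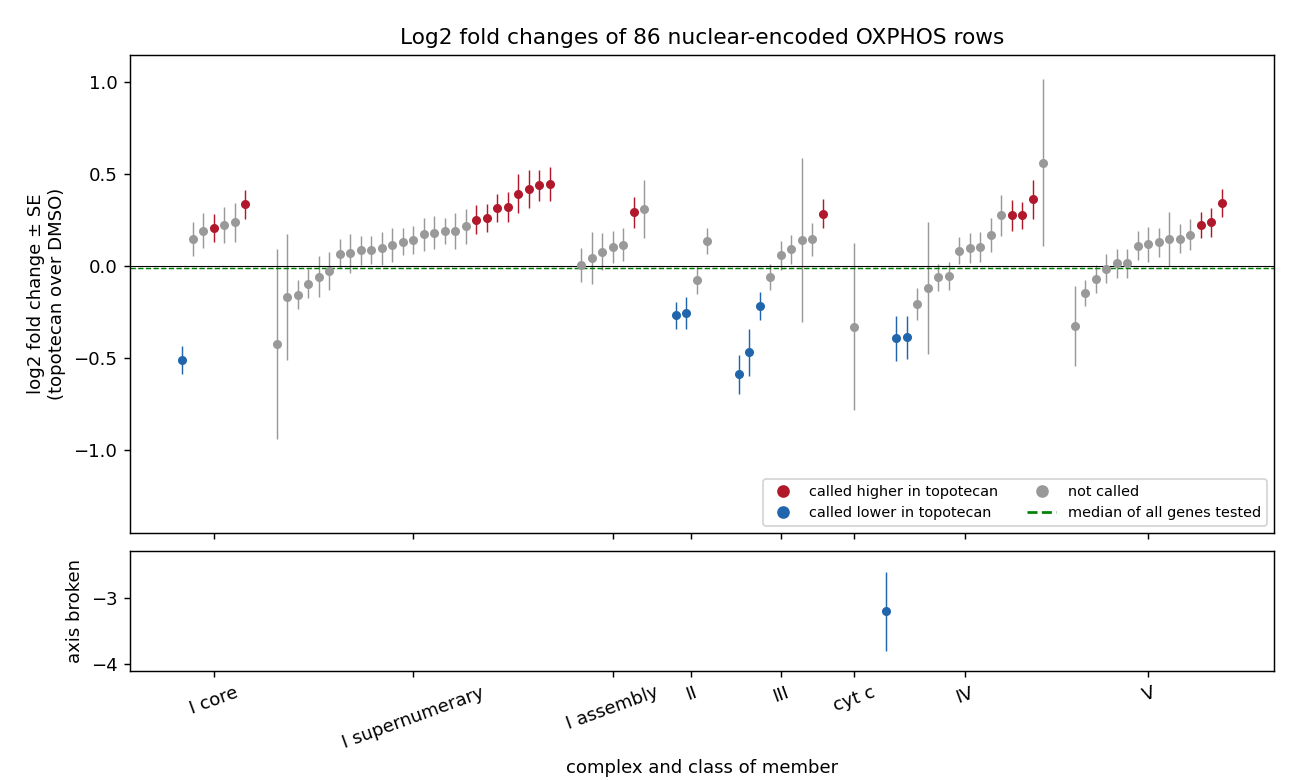
Log2 fold change of topotecan over DMSO with its standard error (vertical axis, broken to show Cox4i2) for the 86 members, grouped by complex and class (horizontal axis) and coloured by call. Complex I supernumerary subunits and complex V hold no fall, complex II holds no rise, and Cox4i2 lies at -3.20. Of all genes tested 16.2% rose and 23.5% fell.

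Promoters of OXPHOS genes are known to hold sites for NRF1, for the ETS factor GABP and for YY1, regulators of mitochondrial genes. They are shown here for a pair of members that rose and a pair that fell. The windows run from 250 bases before to 50 bases after the start site in RefSeq on GRCr8, and capitals mark matches to the NRF1 palindrome with 1 free base, to CCGGAAG (ETS and GABP) or to AANATGGCG (YY1), on either strand. Bases that overlapping matches share are capitalised once, and a match is a run of letters, not a bound site. The Ndufv3 window (chr20:9613536-9613835, plus strand) held 1 NRF1 match, and the Atp5g1 window (chr10:81523296-81523595, minus strand) none of the 3 motifs. The Ndufs1 window (chr9:72073556-72073855, minus strand) held 1 ETS and 1 YY1 match, and the Sdha window (chr1:30764303-30764602, plus strand) 3 NRF1 matches.
Ndufv3 (higher in topotecan): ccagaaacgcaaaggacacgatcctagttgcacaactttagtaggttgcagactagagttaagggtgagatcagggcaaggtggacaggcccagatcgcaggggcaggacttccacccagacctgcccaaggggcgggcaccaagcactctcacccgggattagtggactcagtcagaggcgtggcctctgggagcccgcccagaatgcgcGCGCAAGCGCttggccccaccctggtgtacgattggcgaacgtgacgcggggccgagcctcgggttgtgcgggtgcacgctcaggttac
Atp5g1 (higher in topotecan): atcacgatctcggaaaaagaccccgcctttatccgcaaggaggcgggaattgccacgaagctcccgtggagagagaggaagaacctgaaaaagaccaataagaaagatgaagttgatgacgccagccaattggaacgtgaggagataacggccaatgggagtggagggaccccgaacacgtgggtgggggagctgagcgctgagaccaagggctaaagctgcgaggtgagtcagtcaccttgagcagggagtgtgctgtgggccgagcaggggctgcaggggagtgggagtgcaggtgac
Ndufs1 (lower in topotecan): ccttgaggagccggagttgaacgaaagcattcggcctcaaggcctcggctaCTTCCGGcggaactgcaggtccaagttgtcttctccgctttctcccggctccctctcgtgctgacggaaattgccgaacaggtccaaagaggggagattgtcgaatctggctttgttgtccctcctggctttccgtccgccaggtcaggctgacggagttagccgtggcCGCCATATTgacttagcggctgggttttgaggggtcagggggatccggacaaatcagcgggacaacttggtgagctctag
Sdha (lower in topotecan): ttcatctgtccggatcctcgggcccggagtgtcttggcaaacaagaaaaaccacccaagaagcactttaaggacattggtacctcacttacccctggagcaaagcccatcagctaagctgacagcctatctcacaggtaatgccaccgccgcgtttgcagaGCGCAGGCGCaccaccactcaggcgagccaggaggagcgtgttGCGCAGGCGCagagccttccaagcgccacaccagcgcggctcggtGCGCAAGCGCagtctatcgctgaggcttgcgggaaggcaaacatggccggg

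A window was found for 70 members, and 42 of them (60.0%) held at least 1 of the 3 motifs. Of the 9637 windows of tested genes 29.4% did, and 14.3% of all 33469 RefSeq windows did. The NRF1 letters stood in 22.9% of member windows, 10.1% of windows of tested genes and 4.25% of all windows. The ETS letters stood in 28.6%, 17.5% and 8.75%, and the YY1 letters in 21.4%, 6.18% and 3.01%. Any of the motifs stood in 10 of 15 members that rose, 4 of 7 that fell and 28 of 48 that were not called. These counts are small and describe the windows alone.

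**Figure D3:**
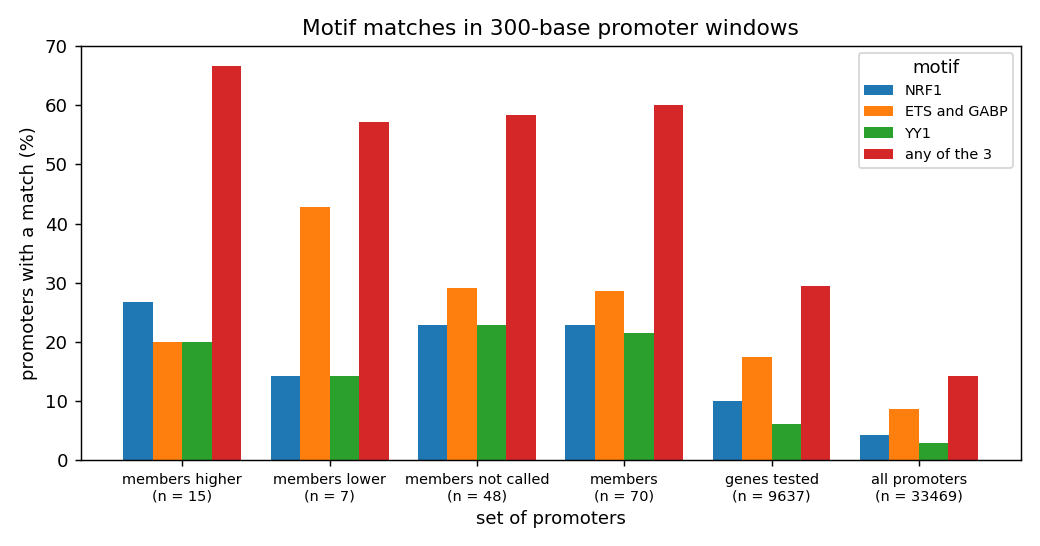
Share of promoter windows with a match (vertical axis, percent) for each motif and for any of the 3, in members by call, in all members with a window, in genes tested and in all windows of the table (horizontal axis). Members stand at 60.0% for any motif, against 29.4% of genes tested, and the 3 groups of members lie between 57.1% and 66.7%.

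Complex I core subunits carry the flavin and iron-sulfur centres that lead electrons from NADH to ubiquinone. Of 7 such genes 2 rose (28.6%) and 1 fell (14.3%), with a median log2 fold change of 0.21. Of all genes 16.2% rose and 23.5% fell, and 7 genes are too few to tell these shares apart. Ndufs1, the largest iron-sulfur subunit and part of the NADH-oxidising module, had 246 and 239 CPM in topotecan and 335 and 356 CPM in DMSO. The groups did not overlap, and the difference, a log2 fold change of -0.51 (SE 0.08, edgeR adjusted p = 1.3e-04), kept its call under all 13 alternatives. Ndufv2, an iron-sulfur subunit of the same module, had 654 and 574 CPM in topotecan and 497 and 476 CPM in DMSO (log2 fold change 0.34, SE 0.08, edgeR adjusted p = 0.0048). Topotecan libraries were thus high for Ndufv2 and low for Ndufs1, although both proteins sit in the same module. Counts of Ndufs1 per 100 counts of Ndufv2, a ratio within a library that no scaling can move, were 37.6 and 41.6 in topotecan and 67.3 and 74.7 in DMSO. The pair sets a gene called lower over a gene called higher. The direction of the ratio was thus fixed by the choice and is a description only.

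Ndufs8, which carries iron-sulfur centres next to the ubiquinone site, had 413 and 396 CPM in topotecan and 363 and 338 CPM in DMSO (log2 fold change 0.21, SE 0.08, edgeR adjusted p = 0.046). Its call was lost in 5 of 13 alternatives. Ndufv1, the subunit that binds NADH and flavin, had 234 and 226 CPM in topotecan and 217 and 177 CPM in DMSO and was not called (log2 fold change 0.22, SE 0.10). Ndufs3 and Ndufs7, core subunits around the ubiquinone site, had log2 fold changes of 0.24 and 0.15 without a call. For both the DMSO libraries lay wide apart, as with Ndufs3, which had 196 and 184 CPM in topotecan and 181 and 141 CPM in DMSO. Without topotecan replicate 1 the call of Ndufv2 was lost as well and 0 core genes rose, whereas 6 rose without DMSO replicate 1 and 1 without either of the other libraries.

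The supernumerary subunits of complex I surround the core and stabilise it. Of 27 rows 8 rose and none fell, with a median log2 fold change of 0.14 and a summed level of 6933 and 6831 CPM in topotecan against 6222 and 5620 CPM in DMSO. The share of 29.6% that rose compares with 16.2% of all genes, 22.6% of genes under 30 kb and 29.2% of genes whose average log2 CPM reached 5, and is thus close to that of abundant genes. Rises numbered 16 without DMSO replicate 1, 8 without DMSO replicate 2, 4 without topotecan replicate 1 and 6 without topotecan replicate 2. For 20 rows both topotecan libraries were above both DMSO libraries, as they were for 33.7% of all genes tested. The same held for 2783 of 6439 genes under 30 kb and for 2085 of 4281 genes whose average log2 CPM reached 5. DMSO replicate 2 was the lower DMSO library for most members. Ndufa8, a subunit at the base of the membrane arm, had 627 and 604 CPM in topotecan and 487 and 420 CPM in DMSO (log2 fold change 0.44, SE 0.08, edgeR adjusted p = 8.6e-04). Ndufb8, a subunit of the far membrane arm, had 877 and 831 CPM in topotecan and 720 and 556 CPM in DMSO (log2 fold change 0.42, SE 0.10, edgeR adjusted p = 0.0051). The groups did not overlap for either gene, and for Ndufb8 the DMSO libraries lay farther from each other than DMSO replicate 1 lay from the nearer topotecan library.

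Ndufv3, an accessory subunit of the NADH module, stood on 2 identifiers that may share reads. The row ENSRNOG00000001182 had 102 and 95.7 CPM in topotecan and 75.5 and 69.4 CPM in DMSO (log2 fold change 0.45, SE 0.09, edgeR adjusted p = 0.0017). The row ENSRNOG00000027593 had 48.2 and 44.2 CPM in topotecan and 36.7 and 33.5 CPM in DMSO (log2 fold change 0.40, SE 0.11, edgeR adjusted p = 0.011). Both rows were high in the topotecan libraries by a like factor. Ndufa7, a subunit of the matrix arm, had 249 and 246 CPM in topotecan and 202 and 195 CPM in DMSO (log2 fold change 0.32, SE 0.08, edgeR adjusted p = 0.0053). The other rises were Ndufb11 (log2 fold change 0.32), Ndufb9 (0.26) and Ndufc1 (0.25), all subunits of the membrane arm.

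Ndufs4, a matrix-arm subunit whose loss in mice gives a model of Leigh syndrome, was the only member that spans 100 kb or more. It had 244 and 233 CPM in topotecan and 261 and 270 CPM in DMSO, a log2 fold change of -0.15 (SE 0.08) that was not called. Its span is 110 kb, and the 1899 tested genes that span at least 100 kb had a median log2 fold change of -0.34, with 43.5% called lower. The groups did not overlap for Ndufs4, with topotecan the lower. The remaining rows of the class lay between -0.42 (Ndufs6, 17 and 6 counts in topotecan and 17 and 11 in DMSO, on a row with the biotype of a processed pseudogene) and 0.22 (Ndufb6). Calls of Ndufb9 and Ndufc1 were lost without either topotecan library, and those of Ndufa7 and of the weaker Ndufv3 row without topotecan replicate 1.

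Of the 7 assembly factors of complex I in the name rule 1 rose (14.3%) and none fell, with a median log2 fold change of 0.10. Of all genes 16.2% rose and 23.5% fell. All 7 had a fitted log2 fold change above 0, as did 3838 of the 6439 tested genes under 30 kb. With 7 genes these shares cannot be told apart. Ndufaf5, which in human cells modifies the core subunit NDUFS7 during assembly, had 158 and 144 CPM in topotecan and 125 and 122 CPM in DMSO (log2 fold change 0.29, SE 0.09, edgeR adjusted p = 0.014, lost without topotecan replicate 1). Ndufaf6 had 9.39 and 8.76 CPM in topotecan and 7.68 and 6.94 CPM in DMSO, which was not called (log2 fold change 0.31, SE 0.16). Ndufaf3 and Ndufaf7 had log2 fold changes of 0.12 and 0.10, Ndufaf1 and Ndufaf4 of 0.05 and 0.01, and Atp5sl, named Dmac2 in RefSeq and needed for the far membrane arm, of 0.08. Core, supernumerary and assembly genes of complex I thus had medians of 0.21, 0.14 and 0.10, and the differences among these classes were not tested.

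**Figure D4:**
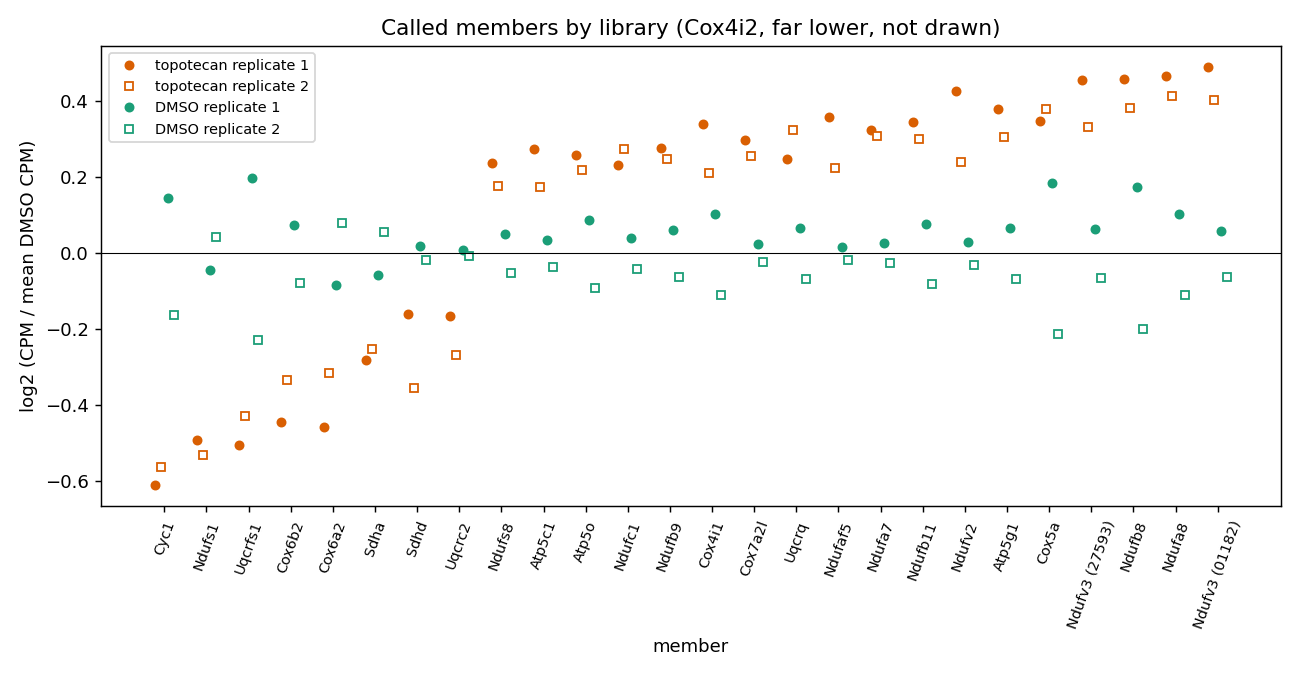
Log2 of each library's CPM over the mean DMSO CPM (vertical axis) for the called members without Cox4i2 (horizontal axis, ordered by fold change), with topotecan in orange and DMSO in green, replicate 1 as filled circles and replicate 2 as open squares. The topotecan points lie below both DMSO points for 8 members and above both for 18, and for Uqcrfs1 and Cox5a the DMSO points lie far apart. The members were picked by their call, which favours such separation. Of all genes tested 33.7% were higher without overlap and 36.9% lower.

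Complex II is succinate dehydrogenase, which is also an enzyme of the citric acid cycle. Among its 4 genes 2 fell and 0 rose, and the median log2 fold change was -0.16. Of all genes 23.5% fell, and 4 genes are too few to set against that share. Sdha, the flavin subunit that oxidises succinate, had 610 and 622 CPM in topotecan and 711 and 770 CPM in DMSO (log2 fold change -0.27, SE 0.07, edgeR adjusted p = 0.011). Sdhd, a membrane anchor, had 261 and 228 CPM in topotecan and 296 and 288 CPM in DMSO (log2 fold change -0.25, SE 0.08, edgeR adjusted p = 0.029). Sdhb, the iron-sulfur subunit, had 641 and 625 CPM in topotecan and 584 and 566 CPM in DMSO and was not called (log2 fold change 0.14, SE 0.07). Sdhc, the other membrane anchor, had 552 and 537 CPM in topotecan and 598 and 548 CPM in DMSO (log2 fold change -0.07, SE 0.08).

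For Sdha and Sdhb the libraries of the groups did not overlap, and they lay in opposite directions. Counts of Sdha per 100 counts of Sdhb were 95.1 and 99.4 in topotecan and 122 and 136 in DMSO, a direction fixed by the choice of this pair. Sdha lost its call without either topotecan library, and Sdhd without topotecan replicate 2, with upper-quartile factors and with DESeq2. Of the 4 genes 1 thus fell without topotecan replicate 1 and 0 without topotecan replicate 2.

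Complex III passes electrons from ubiquinol to cytochrome c. Of 9 rows 1 rose (11.1%) and 3 fell (33.3%), with a median log2 fold change of 0.06. Of all genes 16.2% rose and 23.5% fell, and 9 rows are too few to tell these shares apart. Cyc1, which codes for the cytochrome c1 that hands electrons on to cytochrome c, had 73.3 and 75.9 CPM in topotecan and 124 and 100 CPM in DMSO. Both topotecan values were below both DMSO values (log2 fold change -0.59, SE 0.11, edgeR adjusted p = 5.9e-04), and the call was kept under all 13 alternatives. Uqcrfs1, the Rieske iron-sulfur protein that feeds cytochrome c1, had 42.2 and 44.5 CPM in topotecan and 68.7 and 51.1 CPM in DMSO (log2 fold change -0.47, SE 0.13, edgeR adjusted p = 0.011). Its DMSO libraries differed by more than DMSO replicate 2 did from topotecan, and the call was lost without DMSO replicate 1. Uqcrc2, a large core subunit without a redox centre, had 445 and 414 CPM in topotecan and 502 and 497 CPM in DMSO (log2 fold change -0.22, SE 0.07, edgeR adjusted p = 0.034).

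Uqcrq, a small subunit near the ubiquinone pocket, was the rise in complex III, with 567 and 597 CPM in topotecan and 499 and 455 CPM in DMSO (log2 fold change 0.29, SE 0.08, edgeR adjusted p = 0.0098). Counts of Cyc1 per 100 counts of Uqcrq, a called fall over a called rise, were 12.9 and 12.7 in topotecan and 24.8 and 21.99 in DMSO. The direction of this ratio was fixed by the choice of the pair. Uqcrc1, the partner of Uqcrc2 in the core, had 908 and 935 CPM in topotecan and 916 and 749 CPM in DMSO, with overlapping groups and no call. The 2 nuclear-encoded subunits that carry the electron path from ubiquinol to cytochrome c, Uqcrfs1 and Cyc1, both fell, as measured here at the RNA level only. Uqcrb, Uqcrh and Uqcr11 had log2 fold changes of 0.06, 0.09 and -0.06. Uqcrc2 lost its call without either topotecan library, with upper-quartile factors and with DESeq2, and Uqcrq without topotecan replicate 2. In complex III 2 rows rose without DMSO replicate 1.

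Cytochrome c itself is split over rows. The row named Cycs had 13 and 13 counts in topotecan and 18 and 12 in DMSO, and its Entrez number belongs in RefSeq to a pseudogene, Cycs-ps9. The Entrez number of the RefSeq gene Cycs stands in the table with the row LOC100363502, which the name rule does not take. That row had 82.4 and 76.3 CPM in topotecan and 84.7 and 86.2 CPM in DMSO, and was not called (log2 fold change -0.11, SE 0.09). Reads of near-identical copies may be divided between such rows, so the level of cytochrome c RNA is uncertain.

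Complex IV, cytochrome c oxidase, has nuclear subunits that come in tissue isoforms. Of 16 rows, among them the supercomplex factor Cox7a2l, 3 rose and 3 fell, with a median log2 fold change of 0.09. These shares of 18.75% each compare with 16.2% higher and 23.5% lower of all genes. The falls were in isoforms known to be restricted to certain tissues or conditions, among them Cox4i2, whose call carries no weight. Cox4i2, the hypoxia-inducible isoform of subunit 4, had 1 and 8 counts in topotecan and 51 and 28 counts in DMSO. Summed over libraries this was 9 counts against 79, a level 9.63-fold lower in topotecan with an exact 95% interval from 4.82 to 21.8 that covers counting error only. Cox4i2 passed the low-count filter through its DMSO libraries alone, so its call supports nothing here. Its fitted log2 fold change of -3.20 is given as a description, and without it 8 members fell, 2 of them in complex IV.

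Cox4i2 RNA is known from mural cells of brain vessels in mice. Of 6 fibroblast and mural markers 2 were tested, of which 1 fell and 1 rose, and the list summed to 3.26 and 4.48 CPM in topotecan against 4.17 and 4.75 CPM in DMSO. Pdgfrb, the receptor that marks pericytes, had 1 and 1 counts in topotecan and 88 and 82 counts in DMSO. It passed the low-count filter through its DMSO libraries alone, so its call supports nothing here. Lum, a proteoglycan of fibroblasts, was the marker that rose, with 78 and 106 counts in topotecan and 21 and 15 counts in DMSO (log2 fold change 2.24, SE 0.33, edgeR adjusted p = 1.3e-04). Rgs5, another pericyte marker, had at most 1 count in every library, and Col1a1 and Col1a2 were at 0 in both topotecan libraries. The part of such cells in the Cox4i2 value was not tested.

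Cox4i1, the common isoform, had 1712 and 1564 CPM in topotecan and 1452 and 1252 CPM in DMSO (log2 fold change 0.28, SE 0.08, edgeR adjusted p = 0.017). The topotecan libraries were thus high for Cox4i1, and Cox4i2 is not set against it because of its low counts. Cox6a2, the isoform of heart and skeletal muscle, had 26.6 and 29.4 CPM in topotecan and 34.5 and 38.7 CPM in DMSO (log2 fold change -0.39, SE 0.12, edgeR adjusted p = 0.017). Cox6a1, its common counterpart, had 737 and 724 CPM in topotecan and 732 and 628 CPM in DMSO and was not called (log2 fold change 0.10). Counts of Cox6a2 per 100 counts of Cox6a1 were 3.62 and 4.06 in topotecan and 4.71 and 6.16 in DMSO, without overlap.

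Cox6b2, the isoform of testis, had 19.96 and 21.5 CPM in topotecan and 28.6 and 25.7 CPM in DMSO (log2 fold change -0.39, SE 0.12, edgeR adjusted p = 0.021). Its common counterpart Cox6b1 stood on 2 identifiers, with log2 fold changes of 0.10 and 0.17 and no call. Counts of Cox6b2 per 100 counts of both Cox6b1 rows were 8.75 and 9.15 in topotecan and 13.0 and 12.5 in DMSO. In the Cox6a and Cox6b pairs the restricted isoform took a smaller part of the pair's counts in both topotecan libraries than in either DMSO library. Cox4i2 is left out of this comparison because of its low counts. These pairs were chosen after their values were seen. Ndufa4l2, a hypoxia-inducible relative of Ndufa4, went the other way, with 0.102 and 0.0774 counts per 100 counts of Ndufa4 in topotecan and 0.0523 and 0.0653 in DMSO, at low counts. Cox6a2 lost its call without topotecan replicate 1, and Cox6b2 without either topotecan library, without DMSO replicate 1 and with DESeq2.

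Cox5a, which joins the first nuclear subunits to the catalytic core, had 556 and 568 CPM in topotecan and 496 and 377 CPM in DMSO (log2 fold change 0.36, SE 0.11, edgeR adjusted p = 0.014). Cox5b had 416 and 419 CPM in topotecan and 397 and 292 CPM in DMSO and was not called (log2 fold change 0.28, SE 0.11). For both genes DMSO replicate 2 was far below replicate 1, and without DMSO replicate 2 Cox5a and Cox4i1 lost their calls. Cox7a2l, which ties complex III to complex IV in supercomplexes, had 587 and 570 CPM in topotecan and 485 and 470 CPM in DMSO (log2 fold change 0.28, SE 0.07, edgeR adjusted p = 0.0081). Without topotecan replicate 1 Cox7a2l and Cox4i1 lost their calls. Rises in complex IV numbered 6 without DMSO replicate 1 and 1 without DMSO replicate 2 or topotecan replicate 1, and falls 1 without topotecan replicate 1.

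Ndufa4, first assigned to complex I and now to complex IV, had 707 and 717 CPM in topotecan and 763 and 721 CPM in DMSO and was not called. Its hypoxia-inducible relative Ndufa4l2 had 22 and 14 counts in topotecan and 11 and 11 in DMSO, a ratio of 1.49 with an exact 95% interval from 0.854 to 2.66. The row of Cox7a2 was counted only 26 and 28 times in topotecan and 32 and 22 times in DMSO, with a ratio of 0.912 (interval from 0.613 to 1.35). Cox7c, a subunit of the same complex, had 829 and 877 CPM in topotecan. Reads of Cox7a2 may have been assigned elsewhere, which was not tested, so its RNA level is uncertain. Cox8a, the common form of the smallest subunit, had 156 and 165 CPM in topotecan and 197 and 174 CPM in DMSO and was not called (log2 fold change -0.21, SE 0.09). Cox6c and Cox7c had log2 fold changes of -0.05 and 0.08 without a call.

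Complex V couples the proton gradient to ATP synthesis. Of its 15 rows 3 rose and none fell, with a median log2 fold change of 0.12. Its summed level was 10819 and 10581 CPM in topotecan against 10747 and 9338 CPM in DMSO, and DMSO replicate 1 lay between the topotecan libraries. Atp5g1, 1 of 3 genes for the c subunit of the rotor ring, had 751 and 713 CPM in topotecan and 604 and 550 CPM in DMSO (log2 fold change 0.34, SE 0.08, edgeR adjusted p = 0.0029). Atp5g2, which encodes the same mature c subunit, had 343 and 347 CPM in topotecan and 361 and 322 CPM in DMSO (log2 fold change 0.02). Atp5g3 had 790 and 754 CPM in topotecan and 744 and 626 CPM in DMSO (log2 fold change 0.17, SE 0.09, not called). Counts of Atp5g1 per 100 counts of Atp5g2 were 219 and 206 in topotecan and 167 and 171 in DMSO.

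Atp5c1, the gamma subunit that forms the rotating shaft, had 1341 and 1251 CPM in topotecan and 1135 and 1081 CPM in DMSO (log2 fold change 0.23, SE 0.07, edgeR adjusted p = 0.023). Atp5o, the OSCP subunit that joins the stator to the head, had 733 and 713 CPM in topotecan and 650 and 575 CPM in DMSO (log2 fold change 0.24, SE 0.08, edgeR adjusted p = 0.027). Atp5a1, the alpha subunit of the catalytic head, had 1929 and 2027 CPM in topotecan and 2264 and 2102 CPM in DMSO and was not called (log2 fold change -0.14, SE 0.07). Atp5b, the catalytic beta subunit, had 2068 and 1904 CPM in topotecan and 2039 and 1617 CPM in DMSO (log2 fold change 0.12, SE 0.10). The head subunits alpha and beta thus lay on opposite sides of 0 without a call. Atp5c1 and Atp5o lost their calls without topotecan replicate 1 and with library totals alone, and Atp5o also without topotecan replicate 2 and without DMSO replicate 2. Rises in complex V numbered 8 without DMSO replicate 1 and 1 without topotecan replicate 1, and 1 row fell without topotecan replicate 1 and without DMSO replicate 2.

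Atp5s, a coupling factor of the synthase, had 209 and 110 counts in topotecan and 218 and 144 in DMSO (log2 fold change -0.33, SE 0.22, not called). Atpif1, the inhibitor that stops the synthase from running backwards, stands in the table under its older symbol and is no member. It rose, with 471 and 501 CPM in topotecan and 422 and 395 CPM in DMSO (log2 fold change 0.25, SE 0.08, edgeR adjusted p = 0.019). Other rows that carry an Entrez number of an OXPHOS gene under another symbol were not called. They were those of Ndufa13 (LOC100911483, log2 fold change 0.07), Ndufa1 (LOC108348144, 0.10), Ndufaf8 (LOC690871, 0.07), Atp5mk (LOC103693430, 0.11) and Cox7a1 (LOC687508, 0.35 with 75 counts in all).

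Assembly factors outside the name rule moved in both directions. Of 43 tested genes in 5 lists for complexes I to V 5 rose and 5 fell, with a median log2 fold change of 0.02. These shares of 11.6% each lie below the 16.2% of all genes that rose and the 23.5% that fell. Single lists are small, and their shares were not compared. For complex I 1 of 12 rose, Ecsit (log2 fold change 0.32). For complex II 1 of 3 rose, Sdhaf4 (0.40), which protects the flavin subunit before it is built in. For complex III 1 of 7 rose, Bcs1l, the chaperone that inserts the Rieske protein, with 82.2 and 76.6 CPM in topotecan and 59.6 and 60.7 CPM in DMSO (log2 fold change 0.40, SE 0.09, edgeR adjusted p = 0.0038). Bcs1l was thus high in both topotecan libraries, where Uqcrfs1, its substrate, was low.

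For complex IV 1 of 18 rose and 3 fell. Cox18, which helps insert a mitochondrially encoded subunit into the membrane, had 20.3 and 18.2 CPM in topotecan and 13.0 and 12.2 CPM in DMSO (log2 fold change 0.61, SE 0.13, edgeR adjusted p = 0.0025). The falls were Coa4 (-0.37), Cmc2 (-0.38) and Coa5 (-0.75). For complex V 1 of 4 rose and 2 fell. Atpaf1, a chaperone of the beta subunit, had 4.57 and 4.80 CPM in topotecan and 9.31 and 7.75 CPM in DMSO (log2 fold change -0.87, SE 0.18, edgeR adjusted p = 0.0015). Atpaf2, the chaperone of the alpha subunit, rose (0.40), and Tmem242 fell (-0.29). Several of these calls were lost when 1 library was left out, which leaves 1 library in its group, or when the method changed. Without topotecan replicate 1 the lists for complexes I, II and III held 0 rises, and without topotecan replicate 2 those for complexes I and II held 0. In the complex IV list 0 genes fell without either topotecan library or with DESeq2, and 1 without DMSO replicate 1. In the complex V list 1 gene fell without either topotecan library or with DESeq2. With the pan-neuronal scaling the lists for complexes I, II, III and V held 0 rises.

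Among 14 tested regulators of mitochondrial biogenesis 2 rose (14.3%) and 3 fell (21.4%), with a median log2 fold change of 0.04. Of all genes 16.2% rose and 23.5% fell. Ppargc1a, the coactivator PGC-1alpha that drives mitochondrial gene programmes, had 17.2 and 14.4 CPM in topotecan and 27.8 and 35.4 CPM in DMSO (log2 fold change -0.999, SE 0.15, edgeR adjusted p = 9.8e-05). Its relative Ppargc1b (-0.82) and the nuclear receptor Esrrg (-1.37) fell as well. In RefSeq these 3 genes span 656 kb, 102 kb and 618 kb, all in the class of at least 100 kb of which 43.5% fell. The rises were Peo1, the mitochondrial DNA helicase (0.41), and Tfb2m, a mitochondrial transcription factor (0.41), of which 1 was called without topotecan replicate 1 and 0 without topotecan replicate 2 or with the pan-neuronal scaling. Nrf1, Tfam and Esrra had log2 fold changes of 0.01, 0.16 and -0.07 without a call. Gabpa was not analysed here.

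The 13 protein genes of mitochondrial DNA, partners of these subunits, summed to 49101 and 42922 CPM in topotecan and 46536 and 48604 CPM in DMSO, with overlapping groups. None rose and 3 (23.1%) fell, Mt-nd3, Mt-nd4 and Mt-nd6, by 0.22, 0.25 and 0.25 on the log2 scale, a share close to the 23.5% of all genes called lower.

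**Figure D5:**
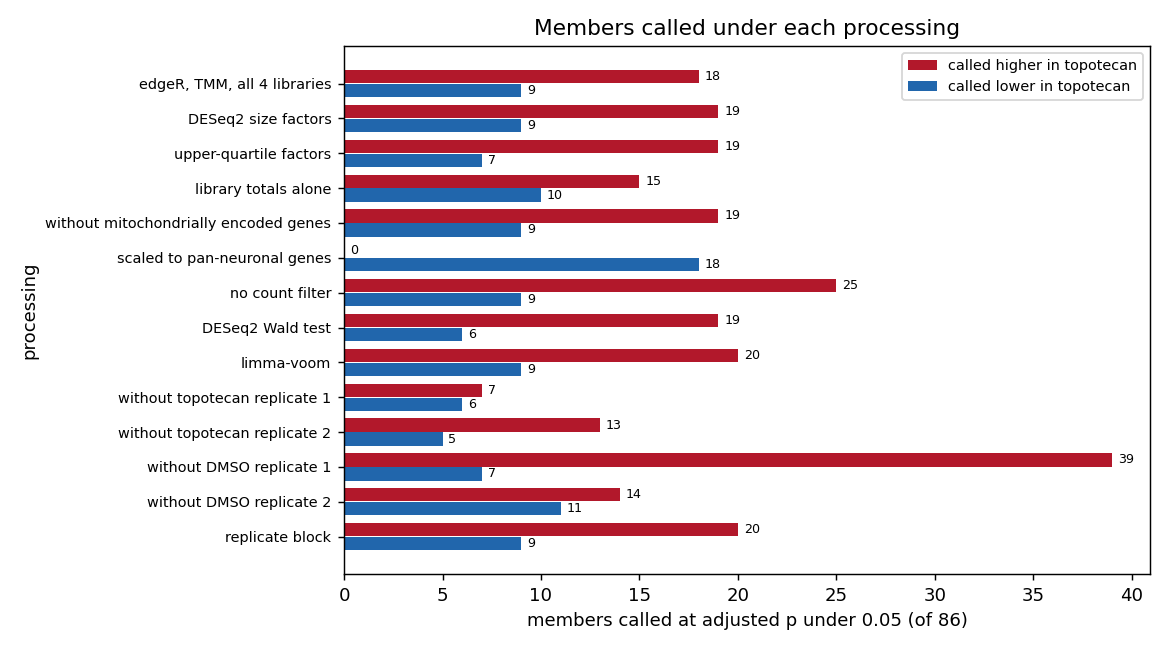
Number of the 86 members called higher or lower in topotecan (horizontal axis) under each processing (vertical axis). Rises range from 0 with the pan-neuronal scaling to 39 without DMSO replicate 1, and falls from 5 to 18.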

How the data were processed

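RNA sequencing of 4 libraries was deposited as a single table of whole-number counts per Ensembl gene. The authors' deposited counts are raw. Per the submitters' processing notes STAR and edgeR were used, with no version. Genome build, annotation, counting tool and strand setting: not given in the sources used here. Genes that overlap, lie antisense or have near-identical copies may therefore share or divide reads. Per the labels' protocols a kit for small RNA was used for the libraries. Nothing in the labels ties the libraries to separate cultures, and p-values thus measure only a spread between samples that may be technical.

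The table's 22641 rows held 21648 identifiers, and 792 identifiers on several rows with identical counts were counted once. Identifiers without a symbol numbered 14 and stayed in the fit. Replicates differed by more than sampling noise (chi-square per degree of freedom 9.34 in topotecan and 13.0 in DMSO). The test was edgeR 4.0.16 (quasi-likelihood, R 4.3.3) on all 4 libraries with treatment as the only term, TMM scaling and filterByExpr (minimum count 10, minimum total 15), which left 12162 genes and 2 residual degrees of freedom. Benjamini-Hochberg adjustment ran over every gene in the fit, and "rose", "fell" and "called" mean an adjusted p under 0.05. CPM are TMM-scaled. They are not divided by gene length and compare a gene between libraries only. Ratios of 2 genes within a library compare that ratio between libraries.

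Members, classes, lists and the pairs of genes set in ratios were chosen with earlier results of these data known. Named are the 4 members of smallest p and the most abundant in each class, isoform groups and every called member, plus the called genes of the outside lists, with Ppargc1a, Nrf1, Tfam and Esrra. Members mentioned besides these, such as Atp5d, Atp5b, Ndufs4, Cox5b and Uqcrb, were chosen after their values were seen. Spans and promoters are from RefSeq on GRCr8, matched by Entrez number, symbol or synonym for all 86 members, 6 of them by symbol alone and Cycs to an entry with another symbol. The promoter letters were searched on both strands. Alternatives were other scalings, no count filter, DESeq2 1.42.0, limma-voom (limma 3.58.1), each library left out and a replicate block.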

Additional observations from a re-analysis of the deposited data

How the results depend on the processing

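Among 12162 genes the count of higher calls was 546 with the pan-neuronal scaling. The members' count of rises was then 0, that of falls 18 and their median -0.10, below 0. Class medians that also changed sign there were -0.012 for complex I core, -0.0765 for supernumerary and -0.12 for assembly genes, -0.16 for complex III, -0.13 for complex IV and -0.094 for complex V. Those of the outside lists were -0.13 for complex I assembly, -0.0152 for complex III assembly and -0.19 for regulators, and Ndufs8 stood at -0.012. With 1 library left out the rises of members ranged from 7 to 39, their falls from 5 to 11 and their median from 0.056 to 0.18. Over all genes higher calls ranged from 1208 to 2470, lower calls from 2336 to 2910 and all calls from 3544 to 5380. The median of complex III ranged from -0.0910 (without DMSO replicate 2) to 0.055, with -0.02 without topotecan replicate 2. That of complex V ranged from -0.017 (without DMSO replicate 2) to 0.203, and that of complex V assembly genes was 0.056 without topotecan replicate 2 and 0.04 without DMSO replicate 1. The cause was not tested. DESeq2 size factors, upper-quartile factors, library totals alone, leaving out mitochondrially encoded genes, no count filter, the DESeq2 test and limma-voom gave 15 to 25 rises and 6 to 10 falls of members.

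The replicate numbers share no stated source, and same-numbered libraries correlated at r = -0.06 in their deviations across genes. With a replicate block 20 members rose and 9 fell, against 18 and 9 without it. With 2 libraries per group an uncalled member is not shown to be unchanged. Cycs, Cox7a2, Ndufa13, Ndufa4l2, Ndufs6 and the weaker Uqcrb row rest on at most 35 counts in each library. Cox4i2 rests on at most 51.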
